A study of Mus musculus with 4 samples.

Results

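CD8+ T cells that infiltrate a tumor carry rearranged alpha and beta T cell receptor chains, and cells with the same pair of rearrangements, a clonotype, descend from 1 clone. Here CD8+ T cells whose clonotype had expanded to 5 to 60 cells in a library, called medium-expanded, were compared with CD8+ T cells whose clonotype was seen in a single cell. The comparison held 4326 of 20422 cell barcodes. In the WT library these were 1320 cells of 107 medium-expanded clonotypes and 767 single-cell clonotypes, and in the VISTA-KO library 1050 cells of 120 medium-expanded clonotypes and 1189 single-cell clonotypes. Members were chosen by measured values: at least 1 UMI (a counted mRNA molecule) of Cd8a or Cd8b1, none of Cd4 or Foxp3, at least 600 detected genes, and the size of the clonotype in its library. Clonotype sizes, Cd8a, Cd8b1, Cd4, Foxp3 and receptor segments are therefore descriptions, and all other genes were not used by the choice.

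The cells came from B16 melanoma, a transplanted mouse melanoma line, grown in Vsir fl/fl CD4-cre mice (VISTA-KO) or in Vsir fl/fl littermates without the Cre (WT). All mice were vaccinated with peptides and given antibodies that block the checkpoint receptor CTLA-4. CD4-cre deletes the floxed Vsir gene, which encodes the checkpoint receptor VISTA, in CD4+ and CD8+ T cells alike, while other host cells keep it. Tumors of several mice were pooled into 1 sample per genotype, so that each genotype has 1 gene expression library and 1 receptor library, mice cannot be told apart, and values of the genotypes are set side by side without a test.

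Naive and memory T cells circulate through lymph nodes with homing receptors such as CCR7, survive on interleukin-7 and express the transcription factor TCF-1. A clone that meets its antigen divides, loses these molecules and gains granzymes and perforin, the proteins with which it kills. Under lasting antigen, as in tumors, inhibitory receptors such as PD-1, LAG-3 and TIM-3 accumulate together with the transcription factor TOX, a state known as exhaustion.

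The junction is the stretch of a receptor chain where V and J segments were joined, and it lies over the antigen in the bound receptor. Among beta junctions, the ending shared by most medium-expanded clonotypes was found in 15 of them, with the same 9 residues encoded by 4 different runs of 27 bases, behind 3 different V segments. In GRCm38.p6 of RefSeq, the J segment they share, Trbj2-4, lies on chromosome 6 from 41543362 to 41543410, and the V segments Trbv16, Trbv10 and Trbv31 start on the same chromosome at 41151791, 41091935 and 41557693. RefSeq lists Trbv10 as a pseudogene. The 4 runs differ only at the base just before the stretch that aligns to Trbj2-4 in the largest clonotypes with the ending. That stretch is J sequence, so that most of the 9 residues come from the J segment. The beta junctions below stand for each V segment, each of the 4 runs and both libraries, with the shared 27-base end in capitals.
WT, TRBV16 with TRAV12D-2, 46 cells: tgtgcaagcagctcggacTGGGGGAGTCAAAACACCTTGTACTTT
WT, TRBV10 with TRAV7N-6, 50 cells: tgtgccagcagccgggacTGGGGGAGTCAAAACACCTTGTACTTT
WT, TRBV16 with TRAV12-2, 15 cells: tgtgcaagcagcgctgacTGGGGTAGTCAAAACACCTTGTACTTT
WT, TRBV16 with TRAV12-2, 9 cells: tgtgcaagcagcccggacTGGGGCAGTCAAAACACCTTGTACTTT
WT, TRBV31 with TRAV12-2, 14 cells: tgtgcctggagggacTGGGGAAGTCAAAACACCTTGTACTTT
VISTA-KO, TRBV16 with TRAV12-2, 11 cells: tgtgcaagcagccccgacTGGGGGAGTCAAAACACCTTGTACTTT
VISTA-KO, TRBV31 with TRAV12-3, 15 cells: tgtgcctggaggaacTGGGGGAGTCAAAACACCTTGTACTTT
The largest gated medium-expanded clonotypes of the libraries ended differently. Their beta junctions are shown for contrast, with the bases between the aligned V and J segments in capitals.
WT, TRBV3 with TRAV14-3, 48 cells: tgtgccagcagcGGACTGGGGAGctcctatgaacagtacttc
VISTA-KO, TRBV31 with TRAV12-2, 43 cells: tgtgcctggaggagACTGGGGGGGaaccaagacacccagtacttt

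The WT library had 10337 barcodes and 72098984 UMIs, and the VISTA-KO library 10085 barcodes and 59916814 UMIs. Of 5202 and 4173 gated CD8+ cells, 77.0% and 79.9% had both receptor chains. The 4 groups of cells summed to between 4270725 and 8893116 UMIs, and their median cells had between 4454 and 5069. Cells with more UMIs count for more in the sums. The WT clonotype TRAV9D-2 with TRBV1 had 3.26% of the medium-expanded cells of WT, with 685931 UMIs, and 13.0% of their UMIs of the division gene Mki67. Cd3e and Cd3g, which encode parts of the receptor's CD3 complex, were at 1188 to 1745 CPM (the count of UMIs scaled to a total of 1e6) in the 4 groups. The libraries shared 145 barcodes, none with the same clonotype, and 5 of these barcodes were members in both. No medium-expanded clonotype of one library was a clonotype of the other. The median medium-expanded clonotype had 10 cells in WT and 8 in VISTA-KO. Cells with more than 1 beta chain, which can be doublets, made up 1.97% and 1.90% of medium-expanded and 9.91% and 9.84% of single cells in WT and VISTA-KO, and without them 1575 genes were higher and 1503 lower.

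Summed over cells, medium-expanded clonotypes had less of the naive and memory program than single-cell ones in both libraries. They had more of the genes for cell division, inhibitory receptors and killing. Of 10834 genes tested on the 4 sums of UMIs, with the library as a block, 1479 were higher (13.7% of the genes tested) and 1428 lower (13.2%) in medium-expanded clonotypes at an adjusted p under 0.05 by edgeR's quasi-likelihood test with Benjamini-Hochberg adjustment. The test has 1 residual degree of freedom, from how far the 2 libraries, which differ in genotype, disagree. It draws the spread of each gene towards a trend over all genes, so that a call does not mean that the libraries agree. Of the called genes, 21 had opposite signs in the libraries. Without scaling for composition the calls were 1913 higher and 934 lower, so that 67.2% of the calls were higher. Ratios within a library are given below as log2 of medium-expanded over single cells after adding 5 CPM, which understates the change of low genes, and the joint log2 ratios are those of the fit.

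The libraries ordered the genes alike. Over 5970 genes with at least 20 CPM in a group of each library, Pearson's r of the WT and VISTA-KO log2 ratios was 0.873 and Spearman's rho 0.775, across genes, which are not independent replicates. The sign was the same for 79.9% of them. The 100 genes with the highest ratio in WT had a median log2 ratio of 1.58 there and 1.22 in VISTA-KO, where all 100 had the same sign. The 100 lowest genes of WT had a median of -1.30 there and -1.03 in VISTA-KO, where 96 had the same sign. Of 2003 called genes in this set, 90 were over 2-fold higher and 48 over 2-fold lower in both libraries, and 7 had opposite signs.

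**Figure D1:**
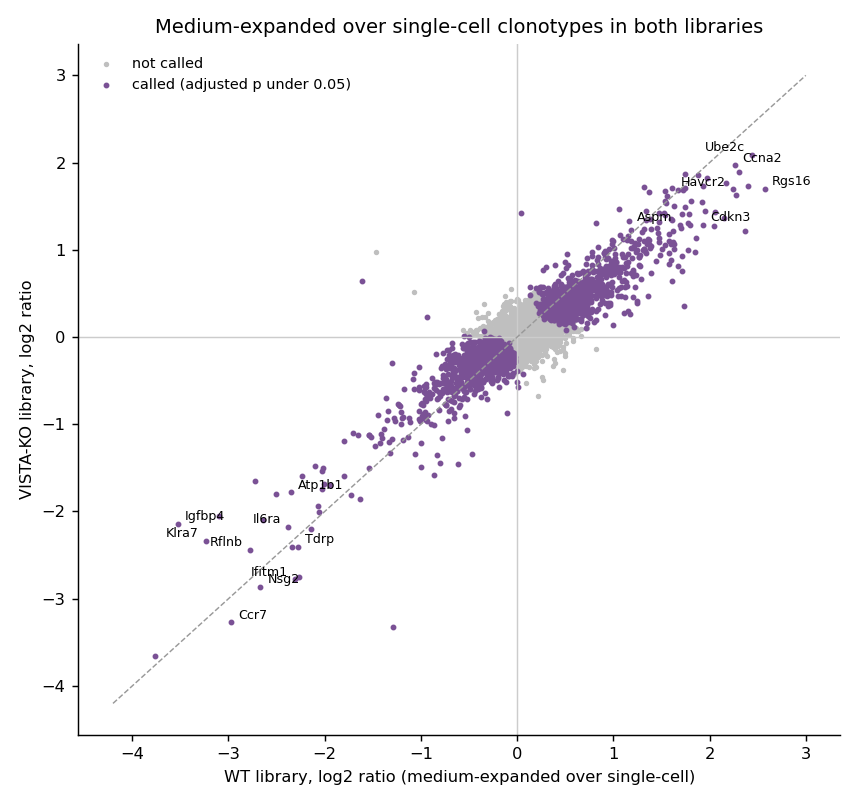
Log2 ratio of medium-expanded over single cells in the WT library (x axis) and in the VISTA-KO library (y axis), with 1 point for each of 5970 genes with at least 20 CPM in a group of each library; purple points were called by the joint test, and the dashed line marks equal ratios. Ccr7 lies at the lower left near the dashed line, and Ube2c and Rgs16 lie at the upper right, Rgs16 below the line with 2.57 in WT and 1.70 in VISTA-KO.

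All 18 genes of the naive and memory list were called lower by the joint test, against 13.2% of all genes tested, with a median log2 ratio of -2.10 against -0.01. Within the libraries 17 were lower in both, and Myb, a transcription factor, had 0.13 in WT and -0.97 in VISTA-KO. Ccr7, which encodes the homing receptor CCR7 (chromosome 11 of GRCm38.p6, 99144199 to 99155077), was at 31.0 and 278.4 CPM in WT and at 22.4 and 259.0 CPM in VISTA-KO, a joint log2 ratio of -3.42 (adjusted p = 2.34e-22, edgeR quasi-likelihood test). One clonotype of 6 gated cells held 47.1% of the Ccr7 UMIs of medium-expanded cells in VISTA-KO. Leaving out every cell with a Ccr7 UMI, 55 medium-expanded and 282 single cells of WT and 36 and 363 of VISTA-KO, an alternative added after seeing the data, the median log2 ratio of the list naive and memory was -1.41, with 877 genes higher and 756 lower in all.

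Tcf7, the gene for TCF-1, had 80.8 and 374.4 CPM in WT and 58.1 and 286.0 CPM in VISTA-KO (log2 ratio -2.34). Il7r, the interleukin-7 receptor chain, had 32.3 and 314.5 CPM in WT and 62.6 and 275.2 CPM in VISTA-KO (-2.77). The medium-expanded groups lay below the single groups of both libraries for each of these genes. Klf2, a factor that maintains the egress receptor S1PR1, had 229.4 and 976.4 CPM in WT and 281.0 and 1089 CPM in VISTA-KO (-2.11). Ltb, the lymphotoxin beta gene, changed least on the log2 scale within this list (-0.49), from 905.7 to 626.9 CPM in WT and from 748.0 to 616.9 CPM in VISTA-KO.

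The genes with the lowest log2 ratios reached beyond this list. Klra7, a receptor of the Ly49 family found on natural killer and memory T cells, had the lowest log2 ratio (-5.72), with 0.22 CPM (95% Poisson interval 0.0272 to 0.812) against 44.0 CPM in WT and 1.32 CPM (0.602 to 2.50) against 26.9 CPM in VISTA-KO. Its medium-expanded sums rest on 2 UMIs in WT and 9 UMIs in VISTA-KO. Ifitm1, an interferon-induced membrane protein, was at 0.450 and 22.0 CPM in WT and at 4.10 and 57.4 CPM in VISTA-KO (-4.28). Il6ra, the interleukin-6 receptor chain, was at 2.25 and 32.8 CPM and at 2.49 and 28.7 CPM (-3.79). All 3 were at or below 4.10 CPM in medium-expanded cells of both libraries. Igfbp4, an insulin-like growth factor binding protein, was at 0.675 and 60.4 CPM in WT and at 7.61 and 50.6 CPM in VISTA-KO (-3.96), and its log2 ratio was -0.11 without the cells that had a Ccr7 UMI, where it did not pass the test. Tdrp, Nsg2, Rflnb, Sh3bp5 and Atp1b1 fell with joint log2 ratios between -4.42 and -3.41. Id3, a transcriptional regulator of memory cells, fell by 3.14 on the log2 scale, from 66.5 to 9.11 CPM in WT and from 43.9 to 4.24 CPM in VISTA-KO.

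Genes for cell division rose as a block in the summed counts, though not in most clonotypes or in the median cell (below). All 16 genes of the mitosis list and all 14 of the DNA replication list were called higher, against 13.7% of all genes tested, with median log2 ratios of 1.83 and 0.90. Ccnb1, which encodes cyclin B1, was at 31.8 CPM in medium-expanded and 4.68 CPM in single cells of WT and at 36.1 and 7.37 CPM in VISTA-KO (log2 ratio 2.37). Ube2c, which helps degrade cyclins at the end of mitosis, was at 185.1 and 30.0 CPM in WT and at 161.9 and 34.2 CPM in VISTA-KO (2.32). Both genes were over 4-fold higher in medium-expanded cells of either library. Rrm2, the ribonucleotide reductase subunit that supplies DNA synthesis, was at 91.6 and 24.4 CPM and at 115.2 and 32.2 CPM (1.78). Of the 12 highest named genes, 9 belong to the division machinery: Ccnb1, Ccna2, Ube2c, Cenpf, Ccnb2, Birc5, Cdkn3, Aspm and Cdk1, with joint log2 ratios between 2.07 and 2.37. The other 3 were Adgrg1, Havcr2 and Rgs16.

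The list of inhibitory receptors and exhaustion genes had 13 of 16 members higher and 1 lower, against 13.7% and 13.2% of all genes tested. Its median log2 ratio was 1.41. Pdcd1, the gene for PD-1, was at 633.4 CPM in medium-expanded and 190.8 CPM in single cells of WT and at 507.2 and 210.3 CPM in VISTA-KO (log2 ratio 1.40). Havcr2, which encodes TIM-3 (chromosome 11, 46454931 to 46481255), was at 80.8 and 13.1 CPM in WT and at 83.6 and 22.4 CPM in VISTA-KO (2.09, adjusted p = 9.3e-14, edgeR quasi-likelihood test). In both libraries medium-expanded cells thus held over 2 times as much Pdcd1 and over 3 times as much Havcr2. Tox2, a relative of TOX, was at 15.0 and 0.937 CPM in WT and at 21.7 and 2.02 CPM in VISTA-KO (3.49), from few UMIs in single cells. Rgs16, a brake on G protein signals, was at 419.8 and 66.5 CPM in WT and at 594.0 and 179.6 CPM in VISTA-KO (2.03). Lag3, Tigit, Tox and Entpd1 rose with log2 ratios between 1.41 and 1.71. Cd160 was the member called lower (-0.28), with 158.7 and 151.7 CPM in WT and 107.4 and 145.6 CPM in VISTA-KO, opposite signs in the libraries. Cd101 and Nrp1 did not pass the test.

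Killing genes rose with exceptions. Of 15 tested members of the cytotoxic list, 9 were higher and 4 lower, against 13.7% and 13.2% of all genes tested. The list had a median log2 ratio of 0.54. Prf1, the perforin gene, was at 257.4 and 71.7 CPM in WT and at 265.0 and 103.9 CPM in VISTA-KO (log2 ratio 1.49). Gzmb, the gene for granzyme B, was at 911.8 and 262.3 CPM in WT and at 1405 and 699.0 CPM in VISTA-KO (1.29). Gzmk, a granzyme of early effector and memory cells, was at 531.0 and 207.0 CPM and at 621.8 and 242.2 CPM (1.27). All 3 genes were about 2-fold or more higher in either library. Nkg7, a protein of cytotoxic granules, was at 3572 and 2021 CPM in WT and at 3749 and 2435 CPM in VISTA-KO (0.63). Gzmc went the other way (-2.44), at 4.39 and 6.56 CPM in WT and at 4.24 and 44.8 CPM in VISTA-KO, so that nearly the whole difference came from single cells of VISTA-KO. Gzmf, Lamp1 and Ctsw were also lower, with log2 ratios of -1.16, -0.31 and -0.30. Srgn, the core protein of the granules, did not pass the test.

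Among effector transcription factors, 8 of 11 were higher and 1 lower, against 13.7% and 13.2% of all genes tested (median log2 ratio 0.51). Prdm1, the gene for BLIMP-1, which represses memory genes, was at 58.1 and 16.9 CPM in WT and at 60.3 and 19.4 CPM in VISTA-KO (log2 ratio 1.61). Eomes, a T-box factor, was at 137.1 and 70.7 CPM and at 119.0 and 66.9 CPM (0.80). Both groups of medium-expanded cells lay above both groups of single cells for these factors. Tbx21 and Runx3 did not pass the test, and Klf13 was lower (-0.56).

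The 15 cytokines and chemokines split, with 6 higher and 5 lower, against 13.7% and 13.2% of all genes tested (median log2 ratio 0.21). Of the higher members, Ccl3 was at 478.8 and 146.8 CPM in WT and at 580.6 and 176.7 CPM in VISTA-KO (1.62), Ccl4 had a log2 ratio of 1.15, and Ccl5, at 9695 and 5000 CPM in WT and at 12340 and 7358 CPM in VISTA-KO, had one of 0.76. Ifng, the interferon gamma gene, and Csf1 had log2 ratios of 0.74 and 1.26. Spp1, the osteopontin gene, was at 87.0 and 12.9 CPM in WT and at 44.6 and 16.3 CPM in VISTA-KO (1.96). In WT 1 clonotype held 38.6% of the Spp1 UMIs of medium-expanded cells, and in VISTA-KO another held 37.4%. The VISTA-KO one, of 5 cells, also held 85.0% of the UMIs of the melanoma gene Pmel in medium-expanded cells there. Whether its Spp1 UMIs came from tumor cells was not tested. Of the 5 lower members, Csf2 was at 2.25 and 19.7 CPM in WT and at 1.32 and 14.6 CPM in VISTA-KO (-3.34). Il2, the interleukin-2 gene, was at 7.08 and 48.0 CPM and at 4.54 and 13.0 CPM (-2.43). Ccl1, a chemokine for CCR8, was at 30.0 and 80.6 CPM in WT and at 3.95 and 84.5 CPM in VISTA-KO (-2.46). Xcl1, which draws cross-presenting dendritic cells, was at 140.2 and 297.1 CPM and at 149.9 and 387.6 CPM (-1.32). These 4 were lower in medium-expanded cells of both libraries, and Lta had a log2 ratio of -0.80. Tnf did not pass the test.

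Genes induced by receptor signalling were mostly lower, with 11 of 18 lower and 2 higher, against 13.2% and 13.7% of all genes tested. Their median log2 ratio was -0.45. Fos, part of the AP-1 factor, was at 272.2 and 542.5 CPM in WT and at 374.7 and 695.2 CPM in VISTA-KO (log2 ratio -1.03), and Junb was at 1154 and 1857 CPM and at 1711 and 2638 CPM (-0.75). Rgcc, a regulator of the cell cycle, fell by 1.55 on the log2 scale. The 2 genes called higher were Tnfrsf9, the gene for 4-1BB, at 286.4 and 86.4 CPM in WT and at 217.9 and 121.5 CPM in VISTA-KO (1.17), and Dusp5 (0.38).

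NK-type receptors were lower in 10 of 16 and higher in 2 (median log2 ratio -0.68), against 13.2% and 13.7% of all genes tested. The higher ones were Il2rb and Klrc1, with log2 ratios of 0.47 and 0.49. Klra6, another Ly49 receptor, was at 1.46 and 18.0 CPM in WT and at 0.585 and 11.4 CPM in VISTA-KO (-3.91). Of 15 tested residency and homing genes, 8 were higher and 5 lower (median 0.36). Itgae, which encodes CD103 of epithelial resident cells, was at 6.07 and 39.8 CPM in WT and at 14.1 and 48.8 CPM in VISTA-KO (-2.26). Cxcr6, which guides T cells to dendritic cells in tumors, was at 604.4 and 303.7 CPM and at 732.0 and 430.9 CPM (0.79), and Klrg1, a receptor of terminal effectors, was at 62.1 and 15.4 CPM and at 59.4 and 28.7 CPM (1.34).

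For the remaining lists of T cell programs, the reference is again 13.7% higher and 13.2% lower over all genes tested. Of 14 glycolysis and hypoxia genes, 8 were higher and 1 lower (median log2 ratio 0.31), with Tpi1 at 0.98. Of 13 galectin, S100 and annexin genes, 7 were higher and none lower at an adjusted p under 0.05 (0.30), with Lgals1 at 0.78. Of 13 survival and death genes, 5 were higher and 3 lower (-0.04). The 16 interferon-stimulated genes had 5 members lower and none higher (-0.15), and the median turned positive when cells were thinned (0.14) or dividing cells left out (0.19). Heat shock genes had 2 of 12 higher and 1 lower (-0.01), close to the shares over all genes tested. Vsir itself (chromosome 10, 60346851 to 60430294) was at 89.8 and 121.5 CPM in WT and at 96.7 and 123.8 CPM in VISTA-KO, a log2 ratio of -0.48 (adjusted p = 2e-05, edgeR quasi-likelihood test). Its UMIs did not separate the libraries, and where the counted reads lie relative to the deleted part is not given in the sources used here, so that they give no check of the labels.

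**Figure D2:**
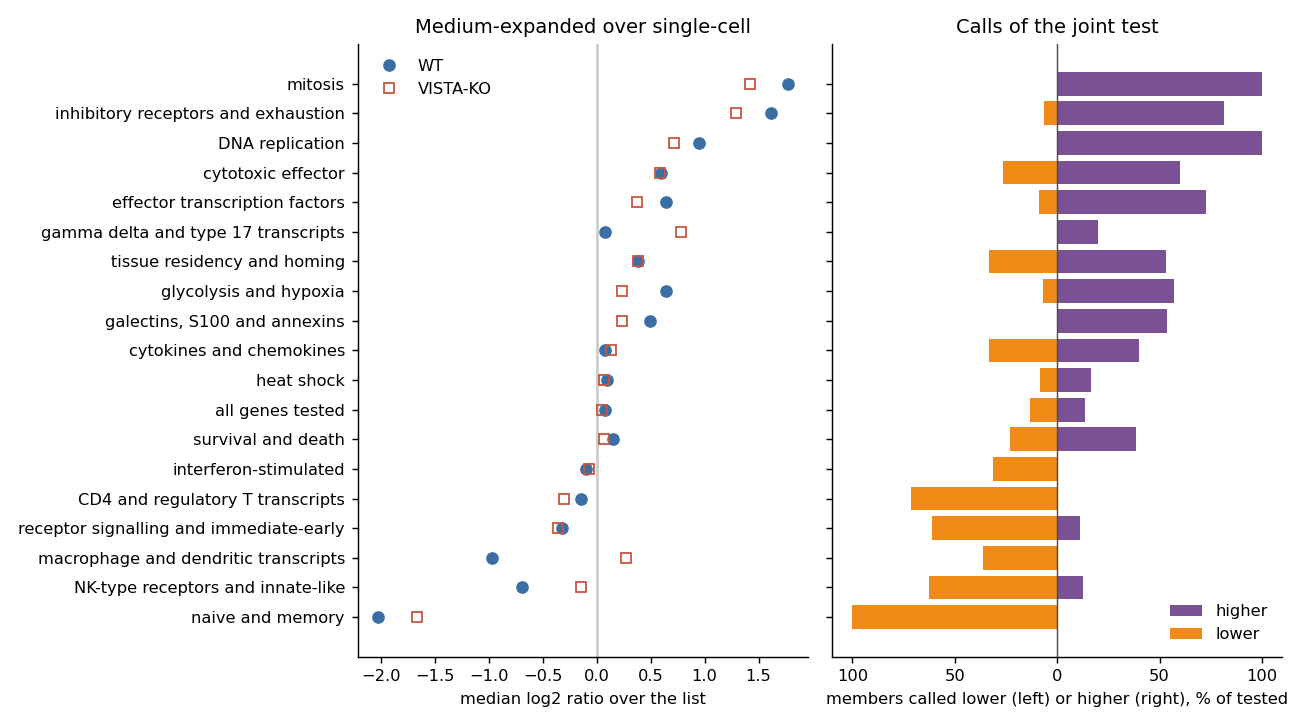
Gene lists, ordered by joint median, with the median log2 ratio of medium-expanded over single cells in each library (left) and the share of tested members called lower or higher by the joint test (right); all genes tested are shown as a list for reference. Mitosis, exhaustion and DNA replication genes lie to the right of all genes in both libraries and naive and memory genes to the left, and the macrophage and dendritic list lies on opposite sides of 0.

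Transcripts of other cells moved with the groups in places, and their part in the results above was not tested. Macrophage and dendritic transcripts summed to 383.3 CPM in medium-expanded and 872.2 CPM in single cells of WT, and to 304.0 and 218.0 CPM in VISTA-KO. Of 11 tested, 4 were lower and none higher, against 13.2% and 13.7% of all genes tested. Dendritic markers differed in level. Flt3 was at 0 to 0.234 CPM in the 4 groups, while H2-Aa was at 135.1 CPM in single cells of WT and 16.6 CPM in those of VISTA-KO. Siglech had log2 ratios from -2.55 to -0.0896 over 20 settings. The B cell marker Ms4a1 was at 0 in all groups and Cd79a at no more than 0.234 CPM, while Igkc, an immunoglobulin light chain, was higher in medium-expanded cells, at 77.0 and 16.2 CPM in WT and at 46.5 and 13.9 CPM in VISTA-KO (log2 ratio 1.90), and Ighm and Cd79b were lower (-1.40 and -1.87). Melanoma transcripts summed to 15.1 and 3.28 CPM in WT and to 542.2 and 295.5 CPM in VISTA-KO, with 4 of 6 called higher. Only 1 medium-expanded and 0 single cells of WT, and 2 and 1 of VISTA-KO, had at least 10 melanoma UMIs. The calls are therefore not read as a difference between the groups. A WT clonotype of 5 cells held 86.1% of the Pmel UMIs of medium-expanded cells in that library. One VISTA-KO clonotype of 5 cells held 85.0% of the Pmel UMIs of medium-expanded cells of VISTA-KO. The CD4 and regulatory T list, without Cd4 and Foxp3, had 5 of 7 members lower and none higher, with sums of 359.3 to 450.4 CPM. The gamma delta and type 17 list had 1 of 5 higher, Maf, and Il17a took opposite signs in the libraries. Of the sex-linked genes, Xist and Tsix did not pass the test and 4 Y-linked genes were at 0 in all groups. Leaving out the cells with at least 10 melanoma UMIs or at least 20 macrophage and dendritic UMIs, an alternative added after seeing the data, left 1467 genes higher and 1410 lower.

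Levels followed clonotype size in steps rather than at the limits of the medium class. The summed level of the naive and memory list in WT was 4312 CPM in single cells, 2260 CPM in clonotypes of 2 to 4 cells, 1681 CPM at 5 to 9, 1356 CPM at 10 to 19, 1354 CPM at 20 to 60 and 1544 CPM over 60 cells. In VISTA-KO it was 3866, 1972, 1449, 1530, 1374 and 943.2 CPM in the same order. Most of the fall in both libraries lay between 1 cell and 2 to 4 cells. The inhibitory and exhaustion list was higher in larger classes, apart from a level step between 5 to 9 and 10 to 19 cells in VISTA-KO, from 948.1 over 2031, 2513 and 2952 to 3072 CPM at 20 to 60 cells in WT, and from 1282 over 2163, 2735 and 2721 to 3646 CPM in VISTA-KO. Clonotypes over 60 cells, outside the comparison, had 2145 CPM in WT, where 1 clonotype of 1065 cells is among them, and 3742 CPM in VISTA-KO.

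At the lower limit, clonotypes of 4 cells had 2418 CPM of the naive and memory list in WT and 1867 CPM in VISTA-KO, and clonotypes of 5 cells 1768 and 1271 CPM. The inhibitory and exhaustion list went opposite ways there. It was at 1973 CPM at 4 cells and 2252 CPM at 5 cells in WT, and at 2490 and 2011 CPM in VISTA-KO. The largest clonotype inside the class had 50 cells in WT and 59 in VISTA-KO, and the smallest outside 65 and 61 cells. Of the 59 cells, 2 were in the gate (3.39%), and the next largest clonotype of VISTA-KO had 43 cells. Clonotypes of 40 to 60 cells, 7 in WT and 3 in VISTA-KO, had 3342 and 4617 CPM of the inhibitory and exhaustion list. Those of 61 to 81 cells, 3 in WT and 1 in VISTA-KO, had 3574 and 4442 CPM, so that the upper limit rests on few clonotypes.

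**Figure D3:**
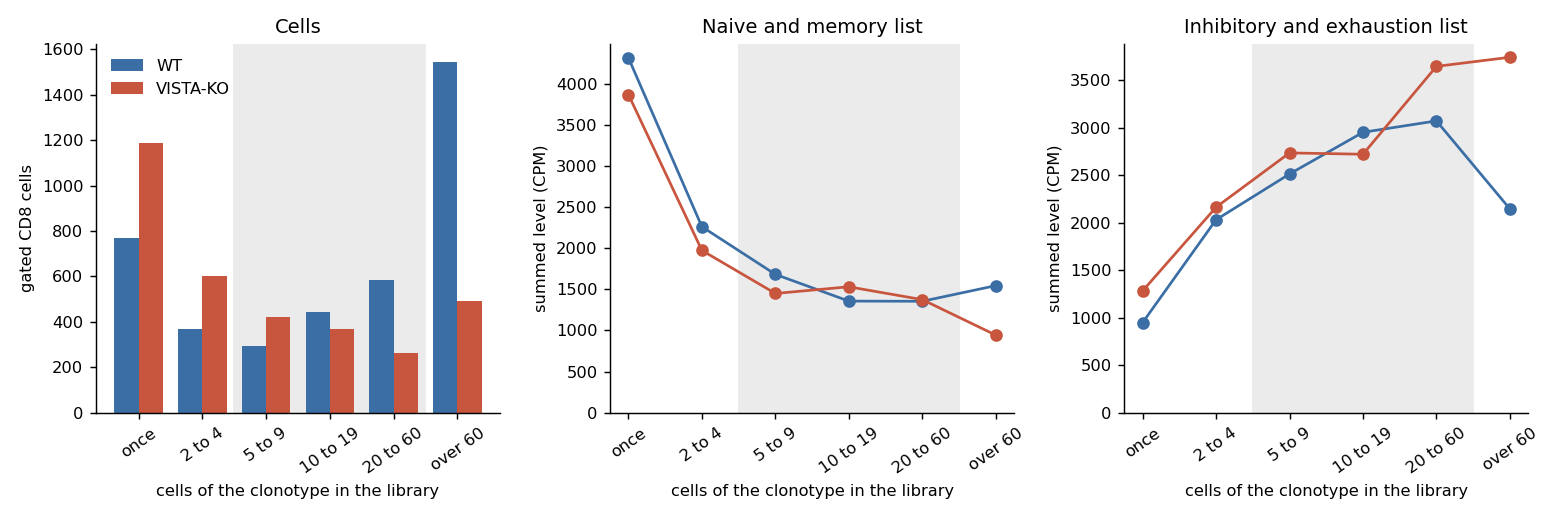
Gated CD8+ cells (left) and the summed level of the naive and memory list (middle) and of the inhibitory and exhaustion list (right) by the size of the clonotype in its library; the grey band marks the medium-expanded class. The naive and memory list falls most between 1 cell and 2 to 4 cells, and the inhibitory and exhaustion list is higher at 20 to 60 cells than in any smaller class of both libraries.

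Differences were also seen cell by cell in several lists. With every cell thinned to 2000 UMIs, the median medium-expanded cell had 4 UMIs of the inhibitory and exhaustion list in both libraries and the median single cell 1. The naive and memory list had a median of 3 UMIs in medium-expanded cells of both libraries, against 8 in single cells of WT and 6 in those of VISTA-KO. For the cytotoxic list the medians were 19 and 10 UMIs in medium-expanded and single cells of WT, and 20 and 12 in VISTA-KO. Cytokines and chemokines had 24 and 8 in WT and 29 and 14 in VISTA-KO, and genes of receptor signalling 9 and 11 in WT and 11 and 15 in VISTA-KO. Thinning left out 43 medium-expanded and 28 single cells of WT and 33 and 36 of VISTA-KO. The groups overlapped, since the middle 80% of medium-expanded cells had 0 to 12 inhibitory UMIs in both libraries and that of single cells 0 to 5 (WT) and 0 to 6 (VISTA-KO). The mitosis list had a median of 2 UMIs in medium-expanded and in single cells of both libraries. Its difference lay in the upper range, with a middle 80% of 0 to 8 in medium-expanded cells of both libraries. In single cells it was 0 to 4 (WT) and 0 to 5 (VISTA-KO).

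Medium-expanded clonotypes differed widely among themselves. Of those with at least 5 gated cells, 92 in WT and 100 in VISTA-KO, the summed level of the inhibitory and exhaustion list ran from 362.4 to 5618 CPM in WT (median 2286) and from 214.2 to 7442 CPM in VISTA-KO (median 2097). It lay above the pooled single cells in 71 of 92 and 64 of 100 clonotypes. The lowest VISTA-KO level was in a clonotype of 5 cells with 12090 CPM of melanoma transcripts. The naive and memory list was more uniform against single cells: no clonotype in WT and 3 of 100 in VISTA-KO lay above the pooled single cells. The mitosis list lay above them in 42 of 92 clonotypes of WT and 50 of 100 of VISTA-KO. Over clonotypes with at least 5 cells left after thinning to 2000 UMIs, 92 in WT and 96 in VISTA-KO, cells of 1 clonotype resembled each other most, among the 8 lists computed, in the inhibitory and exhaustion list, with an intraclass correlation (the share of the variance between cells that lies between clonotypes) of 0.561 in WT and 0.487 in VISTA-KO. For the naive and memory list it was 0.171 and 0.167, for the cytotoxic list 0.239 and 0.108, and for the mitosis list 0.183 and 0.0708. Since the mice of a pool cannot be told apart, differences between mice or tumors can be part of the share between clonotypes.

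Clonotypes with more exhaustion transcripts had fewer naive and memory transcripts (Spearman's rho -0.611 over 92 clonotypes of WT and -0.530 over 100 of VISTA-KO) and fewer immediate-early ones (-0.563 and -0.411). They had more mitosis transcripts (0.414 and 0.372), and the relation to the cytotoxic list was weak (-0.185 and 0.0186). The relation to clonotype size within the class was weak too (0.0729 and 0.151). Points of one library share its depth and cells, and lists are shares of the same total, so that these are descriptions. High and low levels of the inhibitory and exhaustion list were both found among the largest clonotypes, while the extremes of the range lay in small ones. The WT clonotype TRAV14-3 with TRBV3 had 4511 CPM of the inhibitory and exhaustion list, with 989.4 CPM of Pdcd1 and 113.1 CPM of Gzmk, and the WT clonotype TRAV12D-2 with TRBV16, which has the shared beta ending, had 704.9 CPM of the list, with 11.9 CPM of Pdcd1 and 967.8 CPM of Gzmk. The VISTA-KO clonotype TRAV12-2 with TRBV31 that is shown above had 5190 CPM of the list and 944.9 CPM of Pdcd1.

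**Figure D4:**
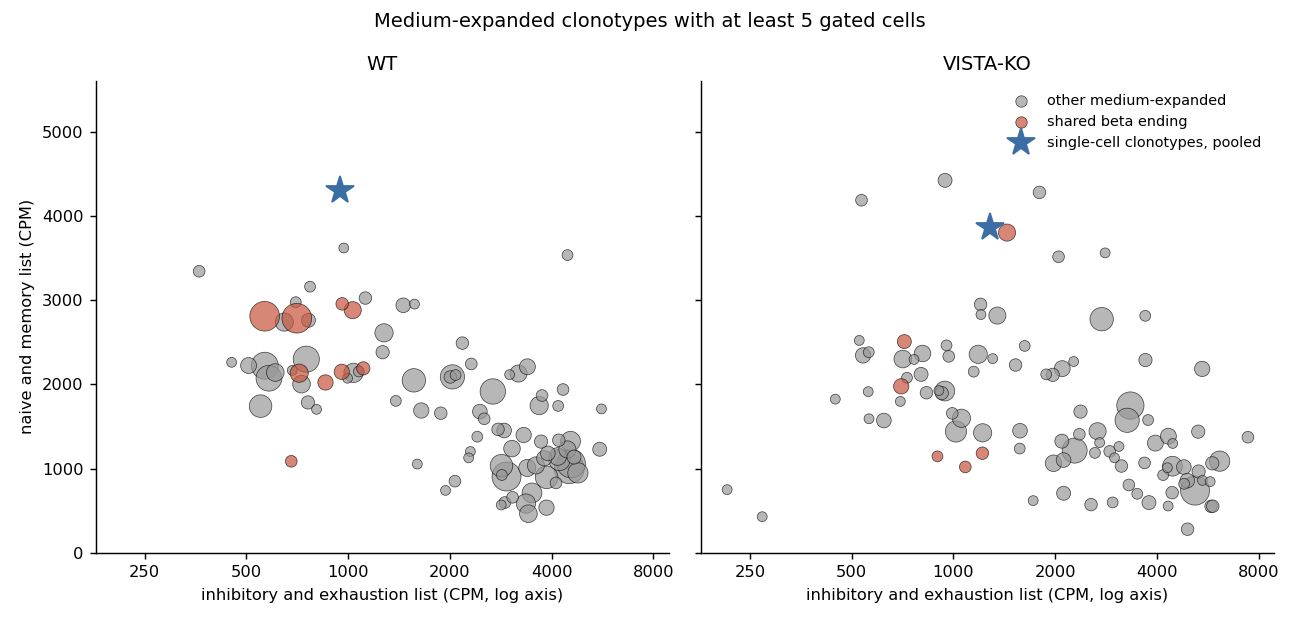
Medium-expanded clonotypes with at least 5 gated cells, 92 in WT and 100 in VISTA-KO, by the summed level of the inhibitory and exhaustion list (x axis, log scale) and of the naive and memory list (y axis); point area is proportional to gated cells, red points have the shared beta ending, and the star is the pool of single cells. Red points lie at or below 1442 CPM on the x axis, and the other clonotypes spread up to 7442 CPM.

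The shared beta ending was found in 9 of 107 medium-expanded clonotypes of WT (8.41%, exact 95% binomial interval 3.92 to 15.4), with 170 cells, and in 6 of 120 of VISTA-KO (interval 1.86% to 10.6%), with 58 cells. Among single-cell clonotypes it was found in 4 of 767 (0.522%) and 3 of 1189 (0.252%). The next most shared beta ending was in 3 medium-expanded clonotypes. Among alpha junctions an ending with TRAJ30, a single run of bases, was in more clonotypes, 20 medium-expanded ones behind 11 V genes, of which 11 were in WT and 9 in VISTA-KO, and in 20 of 767 and 34 of 1189 single-cell clonotypes. Within clonotypes that use TRBJ2-4, the ending was in 9 of 19 medium-expanded and 4 of 71 single-cell clonotypes of WT and in 6 of 20 and 3 of 102 of VISTA-KO. Use of TRBJ2-4 was 17.8% (11 to 26.3) of medium-expanded and 9.26% of single-cell clonotypes in WT, and 16.7% (10.5 to 24.6) and 8.58% in VISTA-KO. These shares include the clonotypes with the ending and are not a separate feature. Of 43 TRAJ, 85 TRAV, 12 TRBJ and 22 TRBV segments, TRBJ2-4 was the only one whose share among single-cell clonotypes lay outside the interval of medium-expanded clonotypes in both libraries. TRAJ30 (chromosome 14, 54189866 to 54189924) was used by 14.0% (8.06 to 22.1) and 4.82% in WT and by 9.17% (4.67 to 15.8) and 5.05% in VISTA-KO. Intervals cover counting error only and treat clonotypes as independent. With the ending, the WT clonotypes of 9 and 7 cells with TRBV31 had the same beta junction, as had the VISTA-KO clonotypes of 13 and 6 cells. They count as separate clonotypes here. The ending was singled out after the receptors were seen, as the beta ending found in most medium-expanded clonotypes. That choice favors an excess over single-cell clonotypes, so that these are descriptions.

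**Figure D5:**
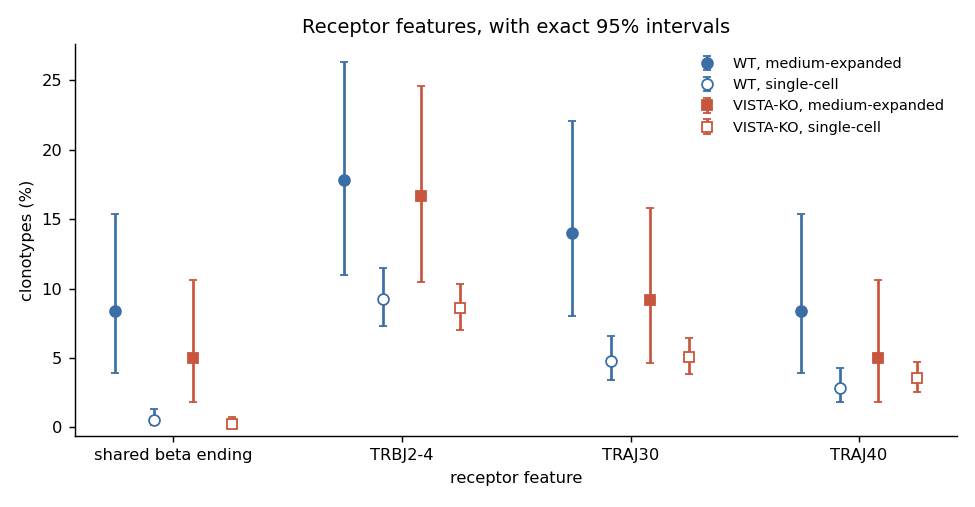
Share of medium-expanded (filled) and single-cell (open) clonotypes of each library with the shared beta ending or with the J segments TRBJ2-4, TRAJ30 and TRAJ40; bars are exact 95% binomial intervals. The intervals of the shared ending do not overlap between medium-expanded and single-cell clonotypes of either library. That ending was picked for its count in medium-expanded clonotypes, which the intervals do not allow for.

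The expression of clonotypes with the shared ending is given as a description, and the pooled values below hide overlap between individual clonotypes. Their summed inhibitory and exhaustion list was at 759.2 CPM (WT) and 1033 CPM (VISTA-KO), against 3082 and 3026 CPM in the other medium-expanded clonotypes and 948.1 and 1282 CPM in single cells. It ran from 566.3 to 1109 CPM over the 9 WT clonotypes and from 701.1 to 1442 CPM over the 6 of VISTA-KO, within the 362.4 to 5618 CPM and 214.2 to 7442 CPM of the clonotypes without the ending, and 4 of the 9 and 1 of the 6 lay above the pooled single cells of their library. Pdcd1 was at 38.8 and 106.7 CPM with the ending and at 677.9 and 521.5 CPM in the others, and Tox at 21.0 and 51.2 CPM and at 281.5 and 238.5 CPM. Their pooled cytotoxic list was the highest of the 3 groups, at 12350 CPM (WT) and 11730 CPM (VISTA-KO) against 8767 and 9909 CPM in the others. Members of that list differed. Gzmk, at 986.9 and 960.7 CPM, lay above the 496.9 and 609.8 CPM of the others. Prf1, at 201.9 and 140.9 CPM, lay below their 261.5 and 269.4 CPM in both libraries. Gzmb was higher with the ending in WT (1462 against 870.7 CPM) and lower in VISTA-KO (1272 against 1410 CPM). The chemokine gene Ccl5, at 15660 and 14580 CPM, lay above the 9249 and 12270 CPM of the others. The mitosis list was at 988.5 and 1704 CPM with the ending and at 3321 and 3301 CPM in the others. Genes of receptor signalling were at 7910 and 11540 CPM with the ending and at 4586 and 6287 CPM in the others.

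Beta chains of medium-expanded clonotypes recurred in the other library more often than those of single cells. The translated beta junction was found in any clonotype of the other library for 15 of 107 medium-expanded (14.0%, 8.06 to 22.1) and 26 of 767 single-cell clonotypes (3.39%, 2.23 to 4.93) of WT. For VISTA-KO it was 13 of 120 (10.8%, 5.90 to 17.8) and 49 of 1189 (4.12%, 3.06 to 5.41). These counts are not independent. For 9 medium-expanded clonotypes of WT and 8 of VISTA-KO the match was to a clonotype of at least 5 cells, so that a match can count in both libraries. Within the libraries, 14 and 8 medium-expanded clonotypes shared their beta chain with another. The matches include clonotypes with the shared ending, such as a WT one of 12 cells and a VISTA-KO one of 11 cells with TRBV16. Both translated junctions, alpha and beta, were the same in 4 pairs of medium-expanded clonotypes that differed in bases or in the alpha V call. A WT clonotype of 5 cells and a VISTA-KO clonotype of 9 cells with TRAV14-2 and TRBV12-1 had the same alpha junction and differed at 1 base of the beta junction, in capitals here.
WT, TRBV12-1: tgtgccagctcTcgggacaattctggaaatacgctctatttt
VISTA-KO, TRBV12-1: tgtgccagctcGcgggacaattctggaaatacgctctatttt
Both were high in the inhibitory and exhaustion list, at 4151 and 4932 CPM. They differed in the naive and memory list (1573 and 279.8 CPM) and in the mitosis list (1957 and 8211 CPM). The WT values rest on 4 gated cells and the VISTA-KO values on 8. A WT clonotype of 17 cells and a VISTA-KO clonotype of 15 cells with TRAV12-3 and TRBV31, both with the shared ending, differed at 2 bases of each chain, with the beta junctions shown next and the differing bases in capitals.
WT, TRBV31: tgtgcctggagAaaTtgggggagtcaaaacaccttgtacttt
VISTA-KO, TRBV31: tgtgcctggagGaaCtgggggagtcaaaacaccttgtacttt
They had 716.5 and 1442 CPM of the inhibitory and exhaustion list. The other 2 pairs were both of WT, clonotypes of 37 and 36 cells with 567.0 and 583.0 CPM and clonotypes of 16 and 10 cells with 608.8 and 763.4 CPM.

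The clonotype calls have limits that can be counted. Of single cells, 2 in WT and 12 in VISTA-KO had both junctions of another clonotype under another V call, and 15 and 34 had the beta chain of a clonotype of at least 2 cells. Of medium-expanded clonotypes, 11 in WT and 13 in VISTA-KO had under 50% of their cells in the gate, where they contributed 12 and 16 cells. Outside the gate, 64.4% and 77.2% of their cells had a Cd4 UMI. Each of these clonotypes still counts among the 107 and 120 in the shares of segments, endings and recurring beta chains.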

How the data were processed

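Per the labels and the study's methods, the authors processed the reads with Cell Ranger against mm10 (GRCm38) and deposited counts of UMIs per gene and barcode, whole numbers with no normalization, and contig tables with a count of UMIs (duplicate_count) per receptor contig. The labels describe a 3′ kit and the methods a 5′ kit, and the size of a pool is given differently in mice and in tumors. Nothing normalized by the authors was used. The members and the 21 gene lists were chosen with earlier results of these data known.

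A clonotype was the V call and junction of the alpha and the beta contig with most UMIs, and its size was counted over all barcodes of the library. In each library, UMIs of medium-expanded and of single cells were added up, which gave 4 sums of 4270725 to 8893116 UMIs. These were tested in edgeR 4.0.16 (R 4.3.3) with filterByExpr, TMM factors, glmQLFit and glmQLFTest with the library as a block, and Benjamini-Hochberg adjustment at 0.05. The groups of a library come from 1 pool, which pairs them. Over 10834 genes the deviations of the sums of a library from their group means correlated with Pearson's r 0.532 and Spearman's rho 0.235. Receptor segments, Cd8a, Cd8b1, Cd4 and Foxp3 stayed in the totals and out of the tests. The test was tested on simulated data of 10834 genes for this comparison: it called 98 of 100 genes changed 4-fold, 84 of 100 changed 2-fold and 14 of 10634 unchanged ones. Simulated counts had the spread estimated by the fit and the same group difference in both libraries. They held no clonotypes, so that these counts do not measure false calls where libraries or clonotypes disagree. CPM intervals are exact 95% Poisson intervals and shares have exact (Clopper-Pearson) intervals, both for counting error only. A sum of 3 UMIs corresponds to 0.337 to 0.702 CPM in the 4 groups.

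Named were the 12 highest and 12 lowest log2 ratios among called genes with at least 20 CPM in a group of each library and the same sign in both, and in each list the 2 genes with the largest absolute log2 ratio and the 2 with the highest mean CPM; the text also names genes outside this rule, chosen after their values were seen: Tcf7, Il7r, Pdcd1's list partners Lag3, Tigit, Tox, Entpd1, Cd160, Cd101 and Nrp1, most granzymes, cytokines, transcription factors and signalling genes, and Vsir. Gene coordinates are those of RefSeq for GRCm38.p6. Doublets were not called; cells with several receptor chains were left out in an alternative. DESeq2 1.42.0 was an alternative. Python 3.11.15 with pandas 2.3.3, numpy 2.4.6, scipy 1.17.1 and matplotlib 3.10.9 did the rest. Receptor segments were compared as named by the authors' contig tables, and no junction translation is printed. A few list members are not reported here by name.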

Additional observations from a re-analysis of the deposited data

Results flagged for a closer look

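Among the named genes and the members of the gene lists, 7 had Poisson intervals of CPM that did not overlap between medium-expanded and single cells in either library and opposite signs in the libraries. These intervals cover counting error only, and the difference was not tested, with 1 library per genotype. The log2 ratio of Cd74, the MHC class II invariant chain, was -1.07 in WT and 0.515 in VISTA-KO. MHC class II genes took the same pattern: H2-Aa had -1.47 and 0.979, H2-Ab1 -1.61 and 0.646, and H2-Eb1 -1.44 and 0.686 in WT and VISTA-KO. In WT, 11 of 767 single cells and 23 of 1320 medium-expanded cells had at least 20 macrophage and dendritic UMIs, and 1 clonotype of 20 gated cells held 57.5% of the H2-Aa UMIs of medium-expanded cells. In VISTA-KO the clonotype of 5 cells that held most melanoma UMIs held 42.4% of them.

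Il17a, the interleukin-17A gene, had a log2 ratio of -1.48 in WT and 0.927 in VISTA-KO, where 1 clonotype of 11 gated cells (TRAV7D-5 with TRBV14) held 52.0% of its UMIs in medium-expanded cells. Penk, the proenkephalin gene, had -0.421 and 1.78, with 1.59 CPM in single cells of VISTA-KO against 57.8 CPM in those of WT. Egr2, an early response factor, had 0.559 and -0.659, at 3.28 to 14.4 CPM in the 4 groups.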

How the results depend on the processing

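Without the library as a block, which pairs the groups of a pool, 611 genes were higher and 537 lower, against 1479 and 1428 with it; all 1148 were among the genes called with the block and had the same sign. DESeq2 called 384 higher and 376 lower. Without composition factors 934 genes were lower. Thinned cells gave 648 higher and 690 lower, with fewer UMIs and 9258 genes tested. Leaving out cells with a Ccr7 UMI, chosen after seeing the data, gave 877 and 756, and leaving out cells with several beta chains as well 1091 and 982. The wider definition of naive-like cells that had been listed at first is not reported here. The other alternatives kept both counts within 1.5 times.

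Of the named genes and list examples, 1840 values over the alternatives were counted as unchanged, 88 lost the call and 39 gained it. Another 8 changed sign in genes called in either setting. Sign changes of genes called in neither setting count as unchanged, as do values of a single library, for which there is no test. Lyz2 turned to 0.106 with clonotypes from the beta chain alone, 0.243 without cells with several chains and 0.386 without cells with transcripts of other cell types. The log2 ratio of Tubb5 turned to -0.0561 in thinned cells and -0.624 without dividing cells, where Icos was at 0.033. Without cells with a Ccr7 UMI the log2 ratio of Igfbp4 was -0.114 and lost its call, and with several-chain cells also left out it was -0.189 and Lyz2 was at 0.108. Over the alternatives with a test, the adjusted p of the log2 ratio of Igfbp4 ran from 2.02e-120 to 0.935 (edgeR's quasi-likelihood test or DESeq2). The cells compared and the log2 ratio changed as well, so that the size of an adjusted p depended on the setting. The main fit has 1 residual degree of freedom. The log2 ratio of H2-Aa was at 1.09 without cells with transcripts of other cell types. The causes were not tested. The median of the naive and memory list stayed between -2.20 and -1.37, that of the inhibitory and exhaustion list between 1.13 and 1.62 and that of the mitosis list between 0.807 and 2.02 over 22 settings, while the macrophage and dendritic, melanoma, gamma delta, interferon-stimulated, cytokine, heat shock, survival and sex-linked lists changed sign in some.

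Leaving out a library leaves no residual degrees of freedom; the ratios within each library stand in its place. Genes below about 20 CPM rest on few UMIs in single cells.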
